A study of Mus musculus with 16 samples.

Results

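The genes described here are the translation initiation and elongation factors, the proteins that bring ribosomes to messenger RNAs, select the start codon and carry the ribosome along the coding sequence. They were chosen by symbol alone, as every gene whose name begins with Eif1 to Eif6 or with Eef1 or Eef2 and goes on in letters and digits only, which leaves out hyphenated pseudogene names. A sex-linked gene, 1 in all, was left out too. The rule took 65 of the 48709 genes in the count table. It also caught the partners and modifiers that share the prefix, such as the eIF4E-binding proteins, the eIF2α kinases and the eEF2 kinase, and 1 predicted argonaute-type gene, Eif2c5, which is no translation factor. RNA was sequenced from the cerebral cortex of C57BL/6 mice. Synaptosomes (SYN), a fraction of pinched-off nerve terminals with attached postsynaptic membrane, came from mice aged 3 weeks, or 5 or 19 months, and the total homogenate (TH) kept before the enrichment came from mice of 5 months. Each of the 4 groups held 4 biological replicates, no genotype or treatment beyond strain and age is named, and the sources used here do not say whether tissue of several mice was pooled.

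In textbook outline, the cap-binding complex eIF4F (eIF4E, eIF4G and the helicase eIF4A) and the ring-shaped eIF3 load the small ribosomal subunit on a message, while eIF2, recharged with GTP by eIF2B, brings the initiator tRNA. Kinases that phosphorylate eIF2α slow this step under stress, and the eIF4E-binding proteins, when mTOR is inactive, compete with eIF4G for eIF4E and so block assembly of eIF4F. During elongation eEF1A delivers tRNAs, the eEF1B subunits recharge eEF1A, and eEF2 moves the ribosome forward. Neurons use these factors in dendrites and at synapses to make protein locally. A subset of the messages begins with a run of pyrimidines at the cap, the 5′ terminal oligopyrimidine (TOP) tract, through which mTOR and LARP1 control their translation. A chosen list of 10 of the 65 genes known for that tract serves here as the TOP list. It holds Eef1a1, Eef1b2, Eef1d, Eef1g, Eef2, Eif3a, Eif3e, Eif3f, Eif3h and Eif4b. The list need not be complete, and contrasts between it and the other factors rest on that choice.

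RefSeq start sites (build GRCm38.p6) were at hand for 50 of the 65 symbols, 6 of them on the TOP list. The stretches below show the start region of these 6 and of 2 genes outside the list, Eef1a2 and Eif4a1, which return in the comparisons. Each is 30 bases placed around the longest unbroken run of C or T between 10 bases before and 50 after the start. It reads 5′ to 3′ on the gene's strand, with that run in capitals, and need not hold the start itself.

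Eef1a1, chr9:78481710-78481739, minus strand: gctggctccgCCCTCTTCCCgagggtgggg
Eef2, chr10:81176634-81176663, plus strand: gacgtcagcggTCTCTTCCgccgcagccgc
Eif3a, chr19:60790644-60790673, minus strand: atcacgtggTTCCTTCCTTTCCgtctctgg
Eif3f, chr7:108934403-108934432, plus strand: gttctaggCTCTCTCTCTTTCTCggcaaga
Eef1b2, chr1:63176850-63176879, plus strand: ttgcgtccgagcgCTTTCgttcaactccgg
Eif4b, chr15:102073771-102073800, plus strand: gacgccgcgccaCCCCCTCgcgctgcttta
Eef1a2, chr2:181156981-181157010, minus strand: cgctcactggTTCTCTCCCTCgctccggtg
Eif4a1, chr11:69672412-69672441, minus strand: cctacaaagtaacgTCacgtcgagttgcag

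A run of at least 8 pyrimidines on the gene's own strand stood in 4 of the 6 starts from the TOP list, in 14 of the 59 starts of the other factors, and in 21.2% of all 32851 RefSeq starts. Eef1a2, which is not on the list, had a run of 11, and Eif4a1 had none longer than 2. Counted from the annotated start, the marked run began at -5 in Eef1a1 and at -4 in Eif3f, and so crossed the start. It lay wholly downstream in the others of the TOP list, from 15 in Eef2, 30 in Eif3a, 33 in Eef1b2 and 11 in Eif4b. In Eef1a2 it began at 16. A run across the start was not particular to the TOP list. Outside it, such runs stood in Eif2s3x (16 bases, from -5), Eif2b5 (14, from -10), Eif2c5 (14, from -5) and Eif3l (10, from -7). Runs that lie downstream are not at the annotated cap. An annotated start need not be the first transcribed base in cortex, and these letters alone do not show that a message has a functional tract.

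The libraries held 10640232 to 21719869 counts, of which mitochondrial ribosomal RNA took 17.6% to 52.3%. Levels are given as CPM, counts scaled to a common library size, with TMM factors (trimmed mean of M values) over all 16 libraries. Of the 65 genes, 2 (Eif2c5 and Eif4e1b) had no count anywhere, Eif4ebp3 was too low to test, and 62 were tested in every comparison. As a whole the factors summed to 3678 to 4510 CPM in the 12 synaptosome libraries and to 3048 to 3191 CPM in the 4 homogenate libraries. Per kilobase of counted length, Eef1a2, the neuronal and muscle form of eEF1A, was highest in 5 months SYN (230 ± 19.7 CPM per kb, mean ± SD, n = 4), ahead of Eef2 (185 CPM per kb), Eef1a1 (85.5 CPM per kb) and Eif3a (65.3 CPM per kb), the scaffold of eIF3. These 4 genes also led in the other 3 groups. Eef2 and Eef1a2 exchanged places at 19 months, where Eef2 had a mean of 201 CPM per kb and Eef1a2 of 191 CPM per kb. The helicase Eif4a1 had 0.90 CPM per kb in 5 months SYN and 2.90 CPM per kb in TH.

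Against markers, the fraction held more postsynaptic message and less vessel and nuclear RNA than the homogenate. Of 8 postsynaptic markers 7 rose, and the summed level went from 2777 to 3246 CPM in TH to 9016 to 10794 CPM in 5 months SYN. All 8 endothelial and mural markers fell, from sums of 147 to 222 CPM to sums of 19.3 to 48.9 CPM, and all 5 nuclear RNAs fell, from sums of 20090 to 24063 CPM to sums of 1321 to 6425 CPM. All 8 astrocyte markers and all 8 microglia markers were higher in SYN, with astrocyte sums of 6552 to 7576 CPM against 2902 to 3485 CPM, and microglia sums of 176 to 209 CPM against 80.0 to 85.2 CPM. No marker had a mean of 0 in any group. Of the other lists, 5 of 8 oligodendrocyte, 5 of 6 precursor and 4 of 8 neuronal markers were higher, and 2 neuronal and 3 of 5 red blood cell markers lower. The part of these other cells in the results on translation factors was not tested, and in bulk RNA a smaller share of a cell type cannot be told apart from less RNA per cell. Replicate 4 of 5 months SYN had the highest nuclear and vessel sums of its group, and replicate 1 of 19 months SYN the highest mitochondrial ribosomal share of all libraries, so that both were also left out.

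The first comparison asked which of these messages synaptosomes carry at another level than the cortex they came from. Of the 62 factors tested, 23 were higher in 5 months SYN than in 5 months TH and 8 were lower, where 50.1% of all 17374 genes tested were called, 24.5% higher and 25.6% lower. The 4 SYN libraries lay wholly above TH for 20 factors and wholly below for 10, as for 21.3% and 26.6% of all genes. The factors' median log2 fold change was 0.11 and that of all genes -0.05. The elongation machinery leaned upward, with 6 of 7 genes higher. So did the TOP list, with 9 of 10 higher and a median of 0.64. Of the factors outside that list 14 of 52 were higher, with a median of 0.03. Eef1a1, Eef1b2, Eef1d, Eef1g and Eef2 are both elongation genes and on the TOP list, so these are not separate results. The summed level of the TOP list was 794 to 840 CPM in the 4 TH libraries and 1268 to 1474 CPM in the 4 SYN libraries, while the other factors summed to 2221 to 2387 CPM and 2448 to 2697 CPM.

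These counts depend on the scaling. When libraries were scaled to their total of non-mitochondrial counts without TMM, the log2 fold changes of all genes moved by a median of -0.39, 7 factors were higher and 27 lower, and of all genes 2185 were higher and 7639 lower. The factors' share of non-mitochondrial counts was alike in both fractions, 0.609% to 0.641% in SYN and 0.617% to 0.638% in TH. The 7 genes higher under this scaling too were Eef1b2, Eef2, Eif2ak3, Eif3a, Eif3h, Eif4b and Eif4ebp2, of which 5 are on the TOP list. Directions in this comparison are therefore relative to the scaling used.

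**Figure D1:**
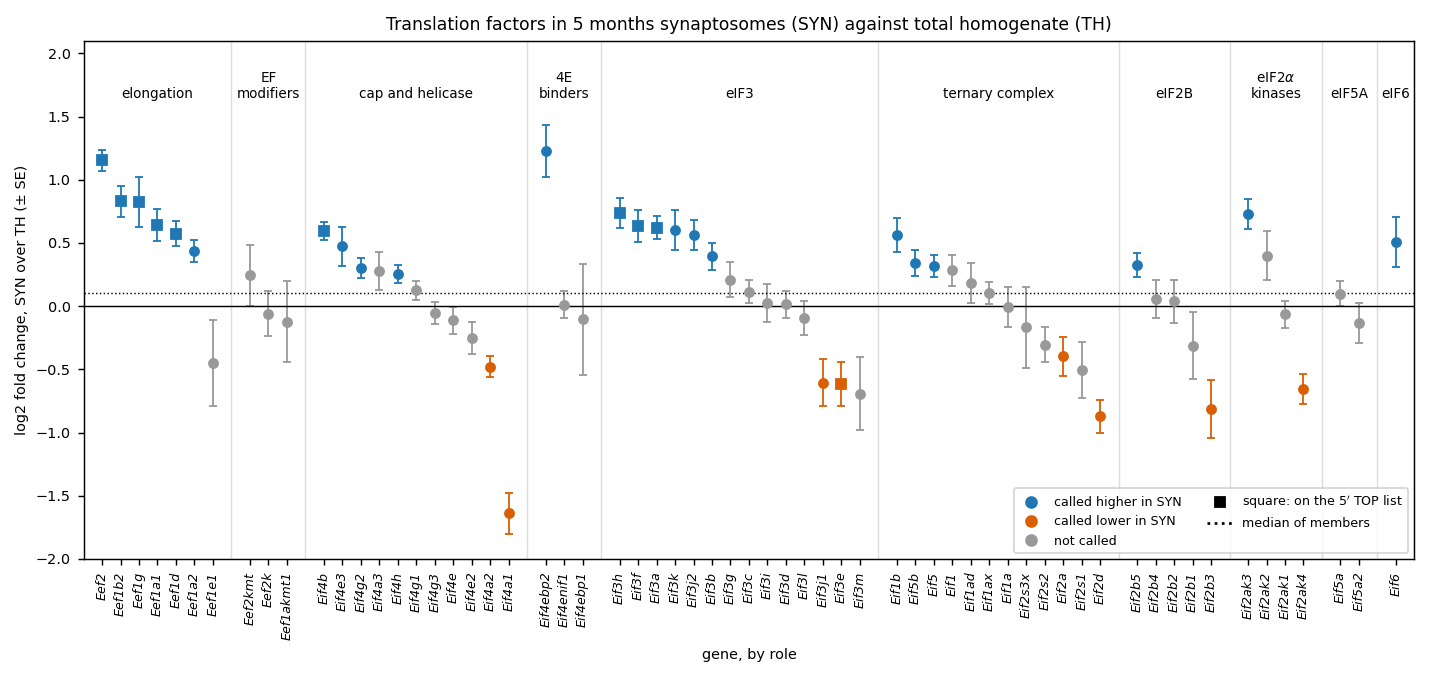
Log2 fold change (5 months SYN over 5 months TH, with standard error) of the 62 tested factors, grouped by role. Squares mark the TOP list, of which 9 of 10 lie above 0, and Eif4a1 is the lowest gene at -1.64.

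Among the elongation factors, Eef2, the translocase, stood out. Its levels were 582, 618, 594 and 497 CPM in SYN replicates 1 to 4 and 243, 256, 288 and 267 CPM in TH. Every SYN library lay above every TH library, and the log2 fold change was 1.15 (SE 0.08, edgeR adjusted p = 3.81e-08). Eef1a1, the widely expressed eEF1A, had 204, 247, 215 and 187 CPM in SYN and 120, 112, 162 and 167 CPM in TH. The groups did not overlap, but the TH libraries themselves fell into a lower and a higher pair, and the log2 fold change was 0.64 (SE 0.13, adjusted p = 0.00115). Its paralog Eef1a2 rose by less, from 320 to 389 CPM in TH to 425 to 520 CPM in SYN (log2 fold change 0.44, SE 0.08, adjusted p = 0.000589).

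The exchange subunits of eEF1 rose with it. Eef1b2 had 49.0, 49.96, 41.1 and 34.4 CPM in SYN and 22.6 to 27.9 CPM in TH, without overlap (log2 fold change 0.83). Eef1d rose by 0.57, again without overlap. Eef1g had 15.9, 16.8 and 17.1 CPM in SYN replicates 1 to 3 but 8.33 CPM in replicate 4, which lay within the TH range of 8.16 to 8.81 CPM. Its log2 fold change of 0.82 (SE 0.20, adjusted p = 0.00281) therefore comes with 1 SYN library at the TH level. Only Eef1e1, a scaffold of the tRNA synthetase complex named for its likeness to these subunits, was not called, with a mean of 2.54 ± 1.25 CPM in the fraction against 3.53 ± 0.63 CPM (SD, n = 4 each). Of the genes that modify elongation factors, Eef2k, Eef2kmt and Eef1akmt1, none was called.

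In the eIF3 complex 6 of 14 genes were higher, 2 lower and 6 not called, where 24.5% of all genes were higher and 25.6% lower. Eif3a had 356, 319, 354 and 323 CPM in SYN and 257, 238, 205 and 199 CPM in TH, which gave a log2 fold change of 0.62 (SE 0.09, adjusted p = 5.09e-05). Eif3h, Eif3f, Eif3k and Eif3j2 rose by 0.74, 0.63, 0.60 and 0.56, each without overlap, and Eif3b by 0.39 with overlapping groups. Eif3e, on the TOP list, ran the other way, at 7.10, 7.21, 5.33 and 5.83 CPM in SYN and 8.48, 8.87, 10.9 and 11.6 CPM in TH, which gave a log2 fold change of -0.61 (SE 0.17, adjusted p = 0.00842). Eif3j1 fell by 0.60 while its near copy Eif3j2 rose, and reads that fit both copies are left out where only unique alignments are counted, as the column names state. Copies of Eif3e named Eif3s6 pseudogenes also stand in the count table, so its level is uncertain for the same reason.

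The cap-binding genes split. Eif4b, a cofactor of the helicase and a TOP gene, had 119, 111, 114 and 116 CPM in SYN and 79.0, 77.8, 74.6 and 80.2 CPM in TH, a narrow spread in both groups (log2 fold change 0.59, SE 0.07, adjusted p = 4.71e-06). Its relative Eif4h rose by 0.25, Eif4g2, which drives cap-independent initiation, by 0.30 and Eif4e3, an unusual cap-binding protein, by 0.47. The cap-binding and scaffold subunits of eIF4F were not called. Eif4e had means of 23.1 and 25.6 CPM in SYN and TH, Eif4g1 of 188 and 176 CPM, and Eif4g3 of 222 and 236 CPM.

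Both eIF4A helicases were lower. Eif4a1 had 3.90, 3.64, 3.48 and 4.64 CPM in SYN and 13.6, 12.4, 11.99 and 12.2 CPM in TH, the widest gap of any factor (log2 fold change -1.64, SE 0.16, adjusted p = 1.16e-06). Eif4a2, the more neuronal form, had 76.9 to 84.0 CPM in SYN and 103 to 130 CPM in TH (log2 fold change -0.48). Small nucleolar RNA genes lie within both loci and overlap counted exons, and a pseudogene of the family is in the table, so the part of such reads is unknown. Eif4ebp2, the main eIF4E-binding protein of brain, rose to 23.8, 14.3, 13.98 and 15.1 CPM in SYN from 8.15, 8.95, 6.87 and 5.41 CPM in TH. Replicate 1 was the highest, yet the groups did not overlap, and the log2 fold change was 1.23 (SE 0.20, adjusted p = 0.00016). Eif4ebp1 was near the floor, at 1.21 and 1.34 CPM.

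Start codon selection and eIF2 recycling gave 3 genes higher and 2 lower of 12, and 1 higher and 1 lower of 5. Of all genes 24.5% were higher and 25.6% lower, so these counts do not set the roles apart. Eif1b, Eif5b and Eif5 rose by 0.57, 0.34 and 0.32. Eif2d, which can deliver tRNA without eIF2, had 9.44, 8.18, 8.33 and 9.40 CPM in SYN and 18.1, 16.6, 15.3 and 16.3 CPM in TH, which gave a log2 fold change of -0.87 (SE 0.13, adjusted p = 6.60e-05). The fall was of about the same size for Eif2b3 (-0.82), a subunit of eIF2B, while Eif2a (-0.40) was weaker and Eif2b5, the catalytic subunit, rose by 0.33. The 3 subunits of eIF2 itself, Eif2s1, Eif2s2 and Eif2s3x, were not called, with log2 fold changes of -0.50, -0.31 and -0.17. With each SYN library paired with the TH library of the same number, Eif2s1 was called lower (-0.52, adjusted p = 0.0365).

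The eIF2α kinases moved in opposite directions. Eif2ak3 (PERK), the sensor of the endoplasmic reticulum, had 37.7, 39.3, 37.4 and 29.2 CPM in SYN and 21.6, 24.4, 23.1 and 19.4 CPM in TH, which gave a log2 fold change of 0.73 (SE 0.12, adjusted p = 0.000107). Eif2ak4 (GCN2), the sensor of uncharged tRNA, had 18.3, 14.4, 14.3 and 17.1 CPM in SYN and 26.1, 28.2, 25.5 and 23.8 CPM in TH, which gave a log2 fold change of -0.66 (SE 0.12, adjusted p = 0.000343). Neither pair of groups overlapped. Eif2ak1 and Eif2ak2 were not called, nor were Eif5a and Eif5a2, while Eif6, which keeps the large ribosomal subunit free, was called at 0.51 with an adjusted p of 0.046. That call was lost under 13 alternatives, among them the paired fit (adjusted p = 0.0746), the DESeq2 Wald test (0.0638) and the fit without SYN replicate 2 (0.124).

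**Figure D2:**
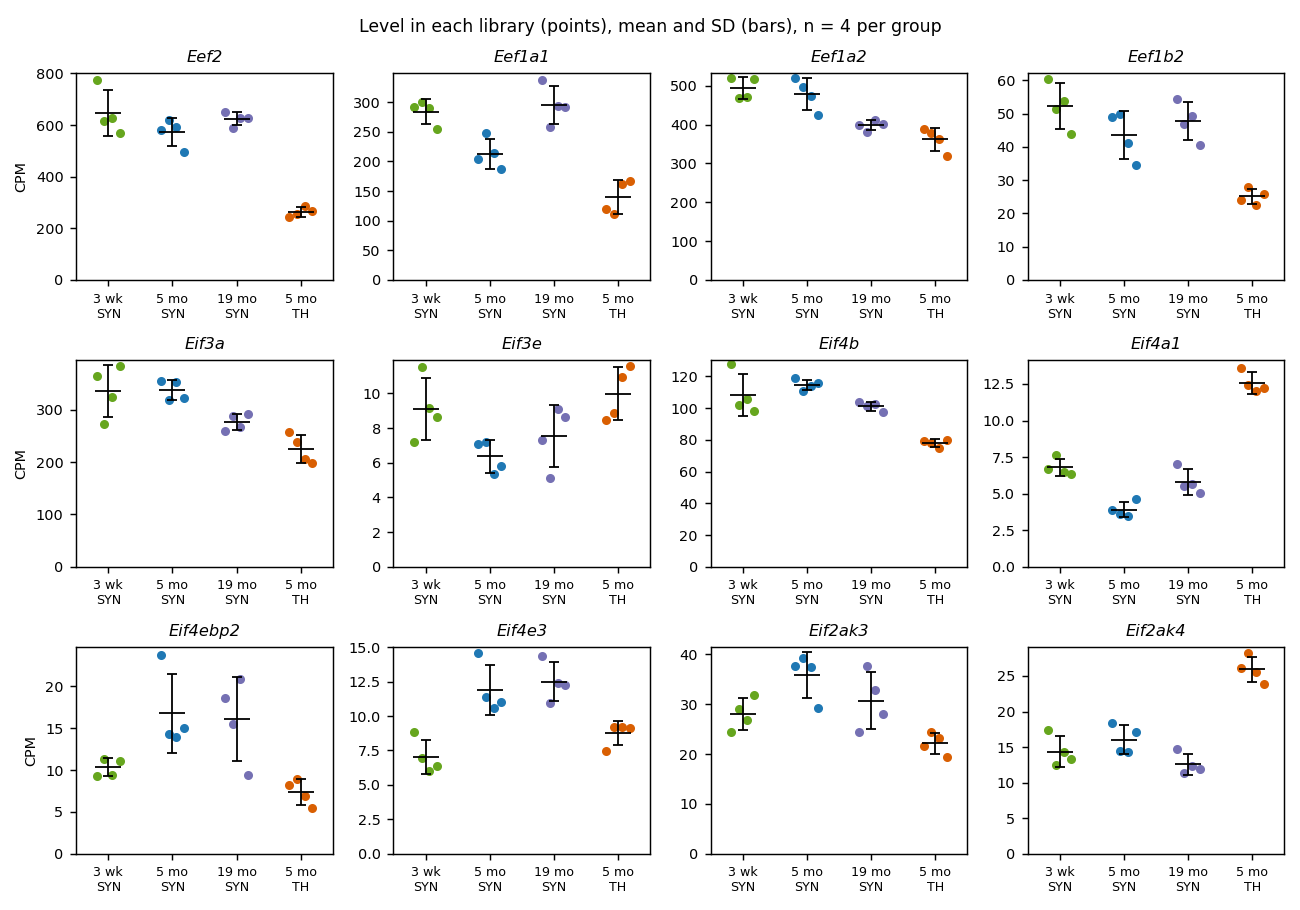
CPM of 12 factors in each of the 16 libraries (points), with group mean and SD (n = 4). Eef2, Eif3a and Eif4b separate SYN from TH upward, Eif4a1 and Eif2ak4 downward, and Eif4e3 is lowest in 3 weeks SYN.

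Of the 31 calls, 7 of the higher and 7 of the lower held under every alternative. Eif2a was lost without SYN replicate 2 or 3 or without TH replicate 1, 2 or 4 (adjusted p 0.0617 to 0.121), and Eif4e3 without replicate 1 of SYN (0.0654) or of TH (0.0583).

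Of other translation genes outside the rule, 11 of 41 were higher and 12 lower, near the shares of all genes tested (24.5% higher and 25.6% lower). Pabpc1, the poly(A)-binding protein and itself a TOP gene, rose from 55.7 to 115 CPM on average (log2 fold change 1.09, adjusted p = 7.29e-08). Ddit3, a transcription factor induced when eIF2α is phosphorylated, rose by 0.77, while Mknk1, a kinase of eIF4E, and Mcts1, a reinitiation factor, fell by 1.20 and 1.34. Tpt1, also a TOP gene, was lower by 1.06, at 3.22 CPM in SYN. Of 10 mitochondrial translation factors none was higher and 3 were lower, where 25.6% of all genes were lower. These were Guf1 (-1.69), Gfm2 (-1.07) and Mtrf1l (-0.76, adjusted p = 0.0544 without TH replicate 3).

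The second question was how the factors changed within synaptosomes between ages. The 3 comparisons of ages share libraries, so their values are given side by side. From 3 weeks to 5 months 7 of 62 factors were higher and 6 lower, where 24.6% of all 15344 genes tested were called, 13.3% higher and 11.3% lower. From 3 weeks to 19 months 3 were higher and 5 lower, where 19.4% of genes were called, 10.0% higher and 9.44% lower. From 5 months to 19 months 1 was higher and none lower, where 0.3% were called, 0.13% higher and 0.169% lower. The later libraries lay wholly above the earlier for 4, 2 and 5 factors in these 3 comparisons (10.3%, 10.7% and 3.56% of all genes) and wholly below for 8, 6 and 9 (12.5%, 12.2% and 4.6%). The factors' median log2 fold changes were -0.02, -0.10 and -0.04 in that order, against 0.00 for all genes in each.

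Between 3 weeks and 5 months, the summed oligodendrocyte markers went from 7402 to 10424 CPM to 2288 to 2832 CPM, with 8 of 8 lower, and those of their precursors from 338 to 389 CPM to 131 to 148 CPM, with 6 of 6 lower. At 19 months the oligodendrocyte sums were 2281 to 3203 CPM, again with 8 of 8 lower than at 3 weeks. Nuclear RNA sums were 609 to 891 CPM at 3 weeks, 1321 to 6425 CPM at 5 months (3 of 5 higher) and 1376 to 2189 CPM at 19 months (none called). Microglia sums were 125 to 184 CPM, 176 to 209 CPM and 213 to 337 CPM, with 3 of 8 markers higher at 5 months and 4 of 8 at 19 months than at 3 weeks, and 1 of 8 higher at 19 than at 5 months. Postsynaptic sums were 7444 to 8419 CPM, 9016 to 10794 CPM and 8003 to 9989 CPM, with 4 of 8 and 1 of 8 higher than at 3 weeks. Of the vessel markers 3 of 7 were higher at 5 months than at 3 weeks, and of the astrocyte markers 2 of 8 were lower. The part of these cells and of nuclear RNA in the changes of the factors was not tested.

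Eif4e3 and Eif1 rose after 3 weeks and stayed up. Eif4e3 had 8.82, 6.93, 6.00 and 6.40 CPM at 3 weeks, 14.6, 11.4, 10.6 and 11.01 CPM at 5 months and 14.4, 10.96, 12.4 and 12.2 CPM at 19 months. No library of either older group reached down to the 3 weeks range, with log2 fold changes of 0.79 (SE 0.17, adjusted p = 0.00114) and 0.85 (SE 0.17, adjusted p = 0.000694). An overlapping predicted gene on the same strand, Gm20696, shares exons with Eif4e3. Eif1, which guards start codon choice, had 27.1, 27.9, 28.2 and 36.2 CPM at 3 weeks against 40.5 to 48.0 CPM at 5 months and 39.1 to 50.2 CPM at 19 months (log2 fold changes 0.59 and 0.58). Eif4ebp2 rose from 9.31 to 11.4 CPM at 3 weeks to between 13.98 and 23.8 CPM at 5 months (0.72, adjusted p = 0.00917). At 19 months it ranged from 9.40 to 20.9 CPM and overlapped the 3 weeks libraries (0.65, adjusted p = 0.0222).

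Eif4h and Eif4a1 went down over the same interval. Eif4h had 104, 119, 107 and 98.5 CPM at 3 weeks, 77.2 to 80.7 CPM at 5 months and 79.7 to 90.03 CPM at 19 months, with log2 fold changes of -0.41 (SE 0.09, adjusted p = 0.000834) and -0.35 (SE 0.09, adjusted p = 0.00497). Eif4a1 was between 6.33 and 7.65 CPM at 3 weeks and between 3.48 and 4.64 CPM at 5 months (-0.76, SE 0.20, adjusted p = 0.00706), and between 5.02 and 7.06 CPM at 19 months, where it overlapped the 3 weeks libraries and was not called against either age. Eif5a, the hypusine factor, Eif3d, an eIF3 subunit that can bind the cap, and Eif4g2 fell by 0.34, 0.33 and 0.28 by 5 months. Eif3g, Eif2ak3, Eif5b and Eif3k rose by 0.48, 0.38, 0.35 and 0.30 by 5 months.

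The 2 large eIF4G scaffolds were lower at 19 months than at 3 weeks. Eif4g3 was at 220 to 239 CPM at 3 weeks, 200 to 257 CPM at 5 months and 164 to 184 CPM at 19 months, the last below every library of both younger groups. Its log2 fold change was -0.41 (SE 0.09, adjusted p = 0.0014) against 3 weeks and -0.38 (SE 0.09, adjusted p = 0.0521) against 5 months, where it was not called. Eif4g1 had means of 193, 188 and 160 CPM, and was called against 3 weeks (-0.25, adjusted p = 0.0315) but not against 5 months (-0.24, adjusted p = 0.172). Eif5b, the GTPase that joins the subunits, went from 138 to 160 CPM at 5 months to 98.8 to 120 CPM at 19 months without overlap, and was not called (-0.46, adjusted p = 0.059). Of the 62 factors, 15 had an unadjusted p under 0.05 between 5 and 19 months. The share of all genes at that unadjusted p was not taken, so this count cannot be read as particular to the factors.

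**Figure D3:**
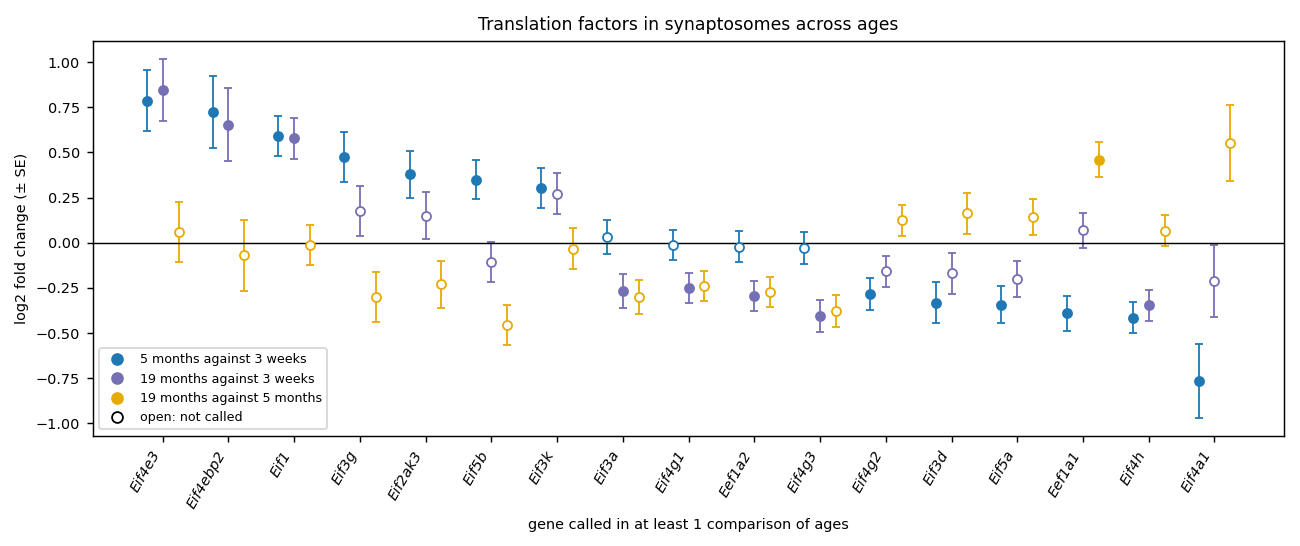
Log2 fold changes with standard errors for the 17 factors called in at least 1 comparison of ages in synaptosomes, filled where called. The rises of Eif4e3 and Eif1 and the fall of Eif4h stand in both comparisons with 3 weeks, and Eef1a1 is the sole filled point between 5 and 19 months.

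Under every alternative, 5 of the 13 calls at 5 months against 3 weeks held (Eef1a1, Eif1, Eif4a1, Eif4e3 and Eif4h) and 4 of the 8 at 19 months against 3 weeks (Eif1, Eif4e3, Eif4g3 and Eif4h). At 5 months, Eif4ebp2 was lost without 5 months replicate 1 (adjusted p = 0.0588), Eif3g without 3 weeks replicate 2 (0.0635), Eif4g2 without 3 weeks replicate 3 (0.0554) and Eif5a without 3 weeks replicate 3 (0.0529) or 5 months replicate 4 (0.0554). Eif5b was lost in 4 of 8 such fits, Eif3d in 4, Eif2ak3 in 6 and Eif3k in 7. At 19 months, Eef1a2 was lost without 19 months replicate 2 (0.0538), Eif4ebp2 without 3 weeks replicate 3 or 19 months replicate 1 or 3 (0.0640 to 0.113), Eif4g1 in 5 of 8 such fits and Eif3a in 7.

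The eEF1A pair gave the only call between 5 and 19 months. Eef1a1 had 292, 300, 291 and 254 CPM at 3 weeks, 204, 247, 215 and 187 CPM at 5 months and 338, 257, 294 and 292 CPM at 19 months, so that the 5 months libraries were the lowest of the 3 ages. It was called between 3 weeks and 5 months (log2 fold change -0.39, SE 0.10, adjusted p = 0.00383) and between 5 and 19 months (0.46, SE 0.10, adjusted p = 0.0328), and not between 3 weeks and 19 months (0.07). The later call was lost in 6 of the 8 fits without 1 library, namely without 5 months replicate 1, 3 or 4 or 19 months replicate 1, 3 or 4 (adjusted p 0.0843 to 0.124), and without both libraries that stand apart (0.34, adjusted p = 0.207). Eef1a2 went the other way, from 469 to 520 CPM at 3 weeks and 425 to 520 CPM at 5 months to 381 to 413 CPM at 19 months, called against 3 weeks (-0.29, SE 0.08, adjusted p = 0.0141) and not against 5 months (-0.27, adjusted p = 0.132).

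A ratio of 2 genes within a library does not depend on scaling. Its size still depends on the gene lengths used and on which reads of each gene align uniquely. Eef1a2 exceeded Eef1a1 per kilobase by 2.13, 1.87, 1.94 and 2.44 times at 3 weeks, by 3.05, 2.41, 2.64 and 2.72 times at 5 months, and by 1.42, 1.77, 1.68 and 1.64 times at 19 months. The 19 months libraries lay below all others. In two-sided exact permutation tests of the log2 ratio, 4 libraries against 4, the difference was -0.73 against 5 months and -0.36 against 3 weeks, each with p = 0.0286, the smallest value this design allows, and 0.0457 after Benjamini-Hochberg adjustment over the 8 ratio tests made. The rise from 3 weeks to 5 months was 0.37 (exact p = 0.0571, adjusted 0.0762). In TH the ratio was 3.89, 4.04, 2.68 and 2.29, overlapping 5 months SYN (exact p = 0.371).

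Eif4a2 exceeded Eif4a1 by far more, 10.9 to 12.8 times per kilobase at 3 weeks, 14.6 to 19.2 times at 5 months and 11.4 to 14.3 times at 19 months in SYN, and 6.15 to 8.63 times in TH. The 5 months SYN libraries lay above all the others. Their log2 ratio differed by 1.17 from TH and by 0.57 from 3 weeks, and that of 19 months from them by -0.44, each with an exact p of 0.0286 and an adjusted p of 0.0457, while 19 months and 3 weeks differed by 0.13 (exact p = 0.257). The test against TH took the paired SYN and TH libraries as unpaired. An exact test on 4 pairs could not reach so small a p. With 1 library left out, 3 against 4 cannot go below an exact p of 0.0571, so those fits show direction only, and in all 8 ratio comparisons the sign stayed.

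**Figure D4:**
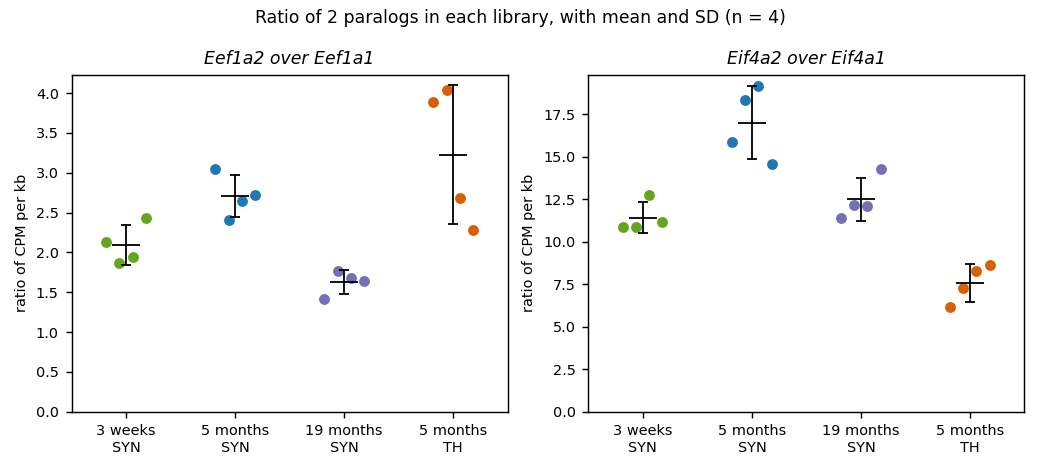
Ratio of CPM per kilobase of Eef1a2 to Eef1a1 and of Eif4a2 to Eif4a1 in each library (points), with mean and SD (n = 4). The first ratio is lowest at 19 months, and the second is highest in 5 months SYN.

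Outside the rule, 6 of 41 other translation genes were higher and 8 lower at 5 months than at 3 weeks, where 13.3% and 11.3% of all genes were. At 19 months 4 were higher and 7 lower than at 3 weeks, where 10.0% and 9.44% of all genes were. Tpt1 was the only one of the 41 called between 5 and 19 months, where 0.3% of all genes were called. It had 3.22 ± 0.82 CPM at 5 months and 9.01 ± 1.81 CPM at 19 months (SD, n = 4 each), without overlap (log2 fold change 1.47, SE 0.25, adjusted p = 0.0117), a call lost without 5 months replicate 1 or 4 or 19 months replicate 3 (adjusted p 0.0536 to 0.0653) and without both libraries that stand apart (0.118), and 6 pseudogenes named after it stand in the table. No mitochondrial translation factor was called between ages.

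Splicing of the factors was given only for ages, in the authors' deposited tables, which carry no spread between replicates. In the authors' deposited LeafCutter tables, which group introns that share an end into clusters, 4 of 22 clusters in the factors had an adjusted p under 0.05 at 19 months against 3 weeks, where 4.81% of all clusters did. At 5 months against 3 weeks it was 1 of 22, in Eif4g2 (adjusted p = 0.0324), against 6.61% of all. At 19 months against 5 months it was 0 of 21, against 0.768%. In that comparison 4 had an unadjusted p under 0.05, and the share of all clusters at that unadjusted p was not taken. None passed 0.01. In the authors' deposited DIEGO tables, which score junctions, 6 of 543, 3 of 532 and 0 of 522 junctions of the factors had a q under 0.05, against 1.48%, 0.69% and 0.0% of all junctions, in the order 5 months against 3 weeks, 19 months against 3 weeks and 19 months against 5 months.

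The 4 clusters called between 3 weeks and 19 months lie in Eef1d, Eif5a, Eif4h and Eif4g3. In Eif4h the event is a coding exon of 60 bases, chr5:134624441-134624500 on the minus strand. The sequences that follow give it and the 3 alternative exons of Eif4g3, in capitals with 12 bases of the neighbouring exon on each side in lower case, 5′ to 3′, from GENCODE vM21 transcripts on GRCm38. All 4 have lengths that are multiples of 3 and lie inside an annotated coding sequence.

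Eif4h, chr5:134624441-134624500, minus strand: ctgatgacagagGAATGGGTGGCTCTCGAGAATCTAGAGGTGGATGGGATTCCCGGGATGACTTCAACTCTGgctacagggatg
Eif4g3, chr4:138084257-138084370, plus strand: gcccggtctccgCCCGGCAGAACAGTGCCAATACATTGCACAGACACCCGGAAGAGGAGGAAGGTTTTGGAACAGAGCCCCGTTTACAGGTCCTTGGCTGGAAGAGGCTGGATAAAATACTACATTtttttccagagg
Eif4g3, chr4:138087533-138087565, plus strand: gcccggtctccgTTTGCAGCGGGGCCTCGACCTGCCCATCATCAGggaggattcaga
Eif4g3, chr4:138095909-138095929, plus strand: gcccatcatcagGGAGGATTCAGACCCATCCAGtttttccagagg

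In the authors' deposited LeafCutter table, the Eif4h junction that skips this exon made up 20.1% of its cluster at 3 weeks and 6.63% at 19 months (adjusted p = 0.0390), and the junctions into and out of the exon went from 34.1% to 50.9% and from 45.8% to 42.5%. In Eif4g3 the junction into the exon of 114 bases went from 8.06% to 23.9%, while the direct junction to the exon of 21 bases went from 23.8% to 11.8% (adjusted p = 0.0451 in the authors' deposited table). The Eef1d cluster holds a pair of junctions into one acceptor. The authors' deposited table gave the junction chr15:75901256-75909244, which starts at an exon of 47 to 111 bases, noncoding in the 11 transcripts that hold it, 55.6% at 3 weeks and 72.5% at 19 months, and chr15:75901256-75902678, which starts at a coding exon of 878 to 1140 bases, 44.4% and 27.5% (adjusted p = 0.0172). Between 5 and 19 months the same cluster went from 45.5% to 72.8% without passing (adjusted p = 0.0810 in the authors' deposited table). In Eif5a the leading junction went from 63.9% to 72.7% (adjusted p = 0.0218, authors' deposited table).

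Counting sets further limits on single genes. Exons of 13 of the 65 factors overlap another gene on the same strand and those of 17 a gene on the other strand, among them Eef1d (Naprt), Eef1b2 (Ndufs1), Eif2d (Rassf5), Eif5b (Rev1), Eif4a2 (Rfc4) and Eif2a (Serp1). The library kit keeps strand, but the strand setting of the counting is not given in the sources used here, so reads from such partners cannot be told apart.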

How the data were processed

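RNA depleted of cytosolic ribosomal RNA was sequenced from 16 libraries, 4 per group. The authors' deposited gene table holds raw counts for 48709 genes, from alignments its column names call unique, with 0 columns of other samples. Per the submitters' processing notes, reads passed bcl2fastq 2.20.0.422, cutadapt 1.18, Trimmomatic 0.38 and featureCounts of Subread, on GRCm38.p6. Not given in the sources used here are the aligner, how strand was set and which annotation release was counted. Per the file headers, the deposited LeafCutter tables hold p-values for each cluster, raw and adjusted, and for each intron the fraction of cluster reads at either age, here in percent. The deposited DIEGO tables hold p-values and q-values of junctions.

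The quasi-likelihood test of edgeR 4.0.16 (robust, R 4.3.3) was run after filterByExpr on the groups and TMM scaling. SYN against TH used 8 libraries and the ages 12. Column names give each 5 months SYN library and the TH library of its replicate number a second number in common, and per the labels the homogenate was kept before enrichment, so these were taken as pairs. The deviations of the 4 pairs from their group means correlated at 0.09, 0.02, 0.01 and 0.13. The main fit and the ratio tests took libraries as unpaired, and the fit with the pair as a block is given where it changes a call. Calls had a Benjamini-Hochberg adjusted p under 0.05 over all genes tested, and adjusted p in the text are edgeR's unless another source is named. CPM use TMM over 16 libraries, and per-kilobase levels the deposited gene length. Paralog ratios added 0.5 counts to each gene. Members, lists, the rule for named genes and the tests were chosen with earlier results of these data known. The rule named the 8 highest and 8 lowest called factors of at least 5 CPM per comparison, a set of 27 always shown, and up to 4 other translation genes each by adjusted p, and not every one is reported. Genes outside it were named to make small counts complete, after their values were seen.

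The depth of 10640232 to 21719869 counts limits factors under about 5 CPM. Simulated counts with 200 altered genes were tested too. For SYN against TH (17374 genes) 14.3% were found at a log2 change of 0.5 and 53.3% at 1, with 5.00 false calls. For 5 months against 3 weeks (15344 genes) it was 28.0% and 69.3%, with 6.33. These values hold for 200 altered genes only. In the data 50.1% of genes were called in SYN against TH and 24.6% at 5 months against 3 weeks. Recovery with so large a share of altered genes was not tested. No 2 libraries were copies of each other (lowest chi-square per degree of freedom 4.59). Alternatives were DESeq2 1.42.0 (size factors, Wald test), upper-quartile scaling, mitochondrial genes removed, 2 other filters, a replicate block, 1 fit over 16 libraries and each library left out. Leaving out both libraries that stand apart and scaling by the non-mitochondrial total were chosen after seeing the data. The replicates are labelled biological.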

Additional observations from a re-analysis of the deposited data

Results flagged for a closer look

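In 16 of 156 sets of 4 libraries, 1 library lay far from the other 3. Chance sets 1 library apart in about 1 in 20 such sets. Replicate 4 of 5 months SYN had 8.33 CPM of Eef1g (others 15.9 to 17.1) and 38.0 CPM of Eif3k (others 32.0 to 32.9). Replicate 1 of 5 months SYN had 23.8 CPM of Eif4ebp2 (others 13.98 to 15.1) and 76.9 CPM of Eif4a2 (others 83.1 to 84.0). Replicate 2 of that group had 7.06 CPM of Eif6 (others 5.54 to 5.66) and 175 CPM of Eif4g1 (others 191 to 193). In TH, replicate 1 had 7.44 CPM of Eif4e3 (others 9.11 to 9.24) and 63.2 CPM of Eif4h (others 69.1 to 69.8).

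At 3 weeks, replicate 4 had 36.2 CPM of Eif1 (others 27.1 to 28.2), 17.5 CPM of Eif4e and 5.91 CPM of Eif6, and replicate 2 had 6.60 CPM of Eif2s1. At 19 months, replicate 1 had 29.9 CPM of Eif2b5, replicate 2 had 5.38 CPM of Eif2b3, replicate 3 had 8.67 CPM of Eif4a3 and replicate 4 had 4.29 CPM of Eif6.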

How the results depend on the processing

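The choice of scaling moved SYN against TH most. Upper-quartile scaling left 15 factors higher, and 3367 of all genes against 4248 in the main fit (median of all genes moved by -0.14). The non-mitochondrial total left 7 factors higher and 27 lower, and 2185 and 7639 of all genes. Under the latter Eif2b5 (-0.0616), Eif4g2 (-0.0891), Eif4h (-0.14), Eif5 (-0.0760), Eif5b (-0.0452) and Eif4g1 (-0.26) changed sign, and Eif4g1 also under upper-quartile scaling (-0.0150). The TOP list had 5 of 10 higher with the non-mitochondrial total and 9 under every other alternative. The cause was not tested.

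With 1 library left out, SYN against TH had 21 to 23 factors higher and 7 to 9 lower. At 5 months against 3 weeks it was 3 to 7 higher and 3 to 8 lower, and Eef1a2 ranged from -0.0586 to 0.0312. At 19 months against 5 months it was 0 to 1 higher and 0 to 2 lower, and at 19 months against 3 weeks 2 to 4 higher and 2 to 5 lower. The calls over all genes moved in these fits too. They ranged from 3724 to 4199 higher and 3888 to 5191 lower in SYN against TH. At 5 months against 3 weeks they were 1433 to 2085 and 1261 to 1812, and at 19 months against 3 weeks 1071 to 1592 and 1039 to 1374. Over all genes, 19 months against 5 months gave 0 higher and 0 lower without 19 months replicate 3. Without 5 months replicate 2 it gave 60 higher and 64 lower. Without both libraries that stand apart, 0 factors were higher at 19 months against 5 months (2 of all genes). At 19 months against 3 weeks 3 factors were lower (1336 of all genes), and Eef1a2 at 5 months against 3 weeks was 0.0323. In 1 fit of 16 libraries 0 were higher at 19 months against 5 months, and 2 were lower without a filter and 3 with DESeq2, where Eif4g3 (adjusted p = 0.00355) and Eif5b (0.0144) were called. The calls over all genes moved too. At 19 months against 5 months 20 genes were higher and 26 lower in the main fit. It was 14 and 14 in the fit of 16 libraries, 142 and 150 without a filter, and 114 and 196 with DESeq2.

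Between ages the replicate numbers are shared as numbers only. With a replicate block 22 factors were higher and 9 lower in SYN against TH, where Eif6 was lost and Eif2s1 gained and no other call changed, 7 and 7 at 5 months against 3 weeks, 1 and 2 at 19 months against 5 months, and 3 and 5 at 19 months against 3 weeks. Over all genes the block gave 4152 and 4402, 2144 and 1926, 124 and 140, and 1752 and 1642 in that order. At a threshold of 0.01 the splicing tables held 0 clusters and 0 junctions of the factors in each comparison. All junctions called in the factors shared the same DIEGO p of 0.0209. Their q was 0.0464 at 5 months against 3 weeks and 0.0489 at 19 months against 3 weeks. With all of them at the same p, the stricter threshold cannot tell stronger junctions from weaker ones.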
